A study of Mus musculus with 15 samples.

Results

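The 5 wild-type (WT) libraries of whole mouse skin were examined on their own, out of 15 libraries in the series. They were chosen by their genotype label, with no measured value involved, and are named here by the replicate numbers 1, 4, 7, 10 and 13 that the labels give them. All came from 3-week-old mice on the C57BL/6 strain, in skin labelled non-lesional. According to the study's methods, WT mice were littermates that carried loxP-flanked alleles of *Otulin*, which encodes a deubiquitinase that removes linear ubiquitin chains, and did not carry the Cre recombinase driven by the K14 promoter of basal keratinocytes. The other 10 libraries came from mice that lacked OTULIN in keratinocytes and are not analysed here. The labels say neither which body site was taken, nor the sex of an animal, nor the hour of sampling. The question was which genes and which tissue compartments made up the counts of normal skin at this age, and which genes differed most between libraries that share 1 genotype.

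Mouse skin is layered. Keratinocytes of the basal layer of the epidermis divide, move up through the suprabasal layers while they change their keratins, and end as the cornified layer, a sheet of dead cells sealed by cross-linked proteins. Hair follicles are pockets of the epidermis that pass through cycles of growth (anagen), regression (catagen) and rest (telogen). During growth the matrix at the follicle base makes the inner root sheath, which contains trichohyalin and its own keratins, and the hair shaft, which is built from hair keratins cross-linked by keratin-associated proteins. Below lie the collagen-rich dermis, a layer of white fat and, in mice, the panniculus carnosus, a sheet of striated muscle that lies in the skin.

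The libraries were QuantSeq 3′ libraries, which by design read each transcript once near its 3′ end. Counts were therefore not divided by transcript length, and levels are given as CPM, counts scaled to a library total of 1000000. Whether each gene followed this design was not tested. Library totals ran from 2248846 to 2567138 counts, and 1 count was worth 0.39 to 0.44 CPM. Between 19759 and 20515 genes had at least 1 count in a library, 16567 genes had a count in all 5 libraries, and the 10 most abundant genes took 18.6% to 23.2% of the counts. No pair of libraries agreed within sampling noise: the chi-square per gene was between 6.09 and 16.5, where sampling noise alone would give a value near 1. A library deposited more than once would give a value below that. The labels do not tie each library to an animal, while the study's text counts mice as the replicates. *Otulin* itself (chromosome 15, 27542635 to 27630693 on the - strand, GRCm38) was counted in every WT library, with 23.6, 27.1, 28.0, 12.2 and 23.8 CPM in replicates 1, 4, 7, 10 and 13. The value of replicate 10 came from 29 counts, with an exact 95% Poisson interval of 8.19 to 17.6 CPM, which lies below the intervals of the other 4 libraries. Such intervals cover counting error only, since reads copied by PCR are not independent molecules.

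Replicate 1 stood apart from the other libraries in several respects that are given here before the results. It had 1178 CPM of *Xist*, the RNA made from the inactive X chromosome of female cells, while replicates 4, 7, 10 and 13 had 3.82, 2.67, 3.37 and 1.95 CPM. It had no count of the 4 Y-linked genes examined, *Ddx3y*, *Eif2s3y*, *Kdm5d* and *Uty*, of which the lowest value in the other 4 libraries was 23.3 CPM. It also had the highest values of almost all hair genes, described below. Since a single library carries both features, a difference tied to the sex of the animal and any other property of this library cannot be told apart, and the counts of variable genes are given with and without it.

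The spread of each gene between libraries was expressed as the biological coefficient of variation (BCV), the standard deviation over the libraries beyond counting error divided by the mean, after TMM normalization. It was estimated for the 10884 genes with a mean of at least 20 counts per library. A gene was called variable at a BCV of 0.5 or more. Over all tested genes the median BCV was 0.141 and the 95th percentile 0.389, and 200 genes, 1.84% of those tested, were variable. Replicate 1 was the highest library for 114 of the 200, followed by replicate 13 with 28, replicate 10 with 21, replicate 4 with 20 and replicate 7 with 17. Among all tested genes replicate 1 was the highest library for 26.3% and replicate 13 for 27.8%. Without replicate 1, 121 of 10813 genes (1.12%) were variable, of which 71 were among the 200. Another 44 of the 200 no longer reached the mean of 20 counts and were not tested.

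**Figure D1:**
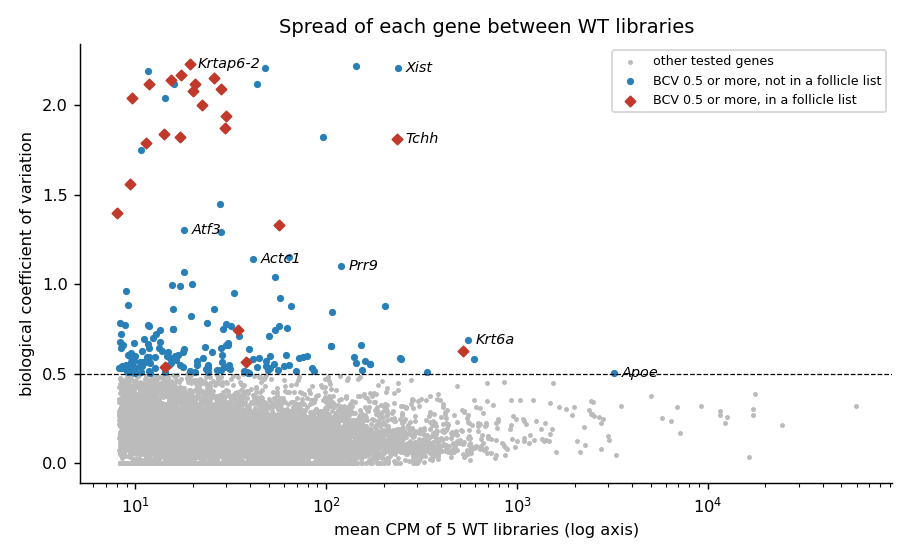
Biological coefficient of variation (y axis) of each of the 10884 tested genes against its mean CPM over the 5 WT libraries (x axis, log scale), with a dashed line at 0.5. Variable genes of the follicle lists (red diamonds) lie mostly near the top, up to 2.23 for *Krtap6-2*, other variable genes (blue) lie mostly below 1, and the remaining genes (grey) lie below the line.

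Genes of the growing hair were frequent among those with the largest BCV. Of the 25 genes with the largest BCV, all were highest in replicate 1, and 15 have names beginning with Krt. Of the 25 only *Car6* and *Tchh* still reached the mean of 20 counts without replicate 1, so the others were tested because of their level in that library. *Xist* and its antisense gene *Tsix*, of which the second shares exon positions with the first, were also among them, as was *Gm26992*, which overlaps *Xist*. The variable genes with names beginning with Krt lay in 3 clusters of the genome. They were sorted by name and chromosome, so this placing is not a result about their spread. Other variable hair genes lay elsewhere: *Tchh* and *Tchhl1* on chromosome 3, and *Hoxc13* on chromosome 15 beyond the stretch given below. *Krt16* and *Krt6a*, which are included, belong to the list of wound keratins and alarmins. On chromosome 11, 8 genes between 99315516 and 100248902 comprised the inner root sheath keratins *Krt25* and *Krt27*, the hair keratin *Krt36*, *Krt16* and 4 keratin-associated protein genes. On chromosome 15, 5 keratin genes lay between 101459061 and 101743109, and on chromosome 16, 6 keratin-associated protein genes lay between 88931804 and 89487952 (all GRCm38).

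Because variable members of these clusters were highest in the same library, the 80 bases from 60 before to 20 after the transcription start are shown for 6 of them, from RefSeq promoter windows of GRCm38.p6. Capitals mark TATAAA on the coding strand, the core of the TATA box. The *Tchh* window is shown because its window holds no match. Trichohyalin also had the largest counts among the variable genes of the inner root sheath, hair shaft and keratin-associated protein lists. The windows, in the order of the lines, are chr16:89420092-89420171 (- strand), chr16:89487933-89488012 (- strand), chr11:99580997-99581076 (- strand), chr11:99322932-99323011 (- strand), chr15:101743078-101743157 (- strand), chr11:99351099-99351178 (- strand) and chr3:93442270-93442349 (+ strand).
Krtap6-2: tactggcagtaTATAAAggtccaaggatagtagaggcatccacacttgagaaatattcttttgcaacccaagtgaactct
Krtap8-1: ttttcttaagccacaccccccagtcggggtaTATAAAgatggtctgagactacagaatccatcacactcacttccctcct
Krtap1-5: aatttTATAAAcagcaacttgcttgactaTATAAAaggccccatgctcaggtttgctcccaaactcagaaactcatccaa
Krt25: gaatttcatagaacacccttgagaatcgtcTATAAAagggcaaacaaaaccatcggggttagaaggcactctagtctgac
Krt71: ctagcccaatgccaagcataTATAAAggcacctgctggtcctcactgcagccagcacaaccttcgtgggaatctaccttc
Krt27: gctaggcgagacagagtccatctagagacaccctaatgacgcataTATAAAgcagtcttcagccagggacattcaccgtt
Tchh: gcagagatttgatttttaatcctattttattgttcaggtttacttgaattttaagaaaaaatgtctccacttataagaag

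TATAAA was searched on the coding strand in the 50 bases before each start. It was present in 2.63% of all 32851 promoter windows. Of the 20 variable genes of the inner root sheath, hair shaft and keratin-associated protein lists, 18 had a window, and 11 of these held the motif: *Krt25*, *Krt27*, *Krt71*, *Krtap1-5*, *Krtap3-1*, *Krtap4-1*, *Krtap6-2*, *Krtap6-5*, *Krtap8-1*, *Krtap19-9b* and *Krtap22-2*. Of the members that were not variable or not tested, 33 of 56 with a window held it. In the basal, suprabasal and cornified lists 9 of 46 genes with a window held it, among them *Krt10* and *Lor*, and in the fast fibre and sarcomere scaffold lists 3 of 21 did so (*Acta1*, *Myh1* and *Myh4*). A match describes these letters and is not evidence of a factor bound there.

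Trichohyalin (*Tchh*), the scaffold protein of the inner root sheath and medulla, had 996 CPM in replicate 1, 28.4 in replicate 4, 20.9 in replicate 7, 22.4 in replicate 10 and 109 in replicate 13. Replicate 1 was thus far above the rest and replicate 13 in between. The BCV of *Tchh* was 1.81, and 0.907 without replicate 1, so that it remained variable. Its neighbour on chromosome 3, the trichohyalin-like gene *Tchhl1*, was likewise highest in replicate 1 and second in replicate 13, with 189, 17.0, 14.7, 13.5 and 48.7 CPM in replicates 1, 4, 7, 10 and 13.

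The inner root sheath keratins had an even steeper pattern. *Krt25* had 317 counts (127 CPM) in replicate 1, 1 count in replicate 4, none in replicates 7 and 10, and 51 counts (19.9 CPM) in replicate 13. *Krt71* had 102, 2.12, 0, 0 and 7.40 CPM, and *Krt27* had 72.5, 1.27, 0.44, 0.42 and 10.9 CPM, each in the order 1, 4, 7, 10 and 13. In 3 libraries these keratins were at or close to 0, where a count of 0 has an exact 95% Poisson upper bound of 1.64 CPM in replicate 7 and 1.56 CPM in replicate 10. Of the 13 genes of the inner root sheath and medulla list 7 reached the mean of 20 counts, and 6 of these were variable. Without replicate 1 only 4 reached it, so *Krt25*, *Krt27* and *Krt71* were tested because of their level in that library. The exception was *Gata3*, a transcription factor of the sheath that epidermal and immune cells use as well, with 271, 245, 283, 309 and 277 CPM and a BCV of 0.0699.

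Of the 6 tested hair shaft genes 5 were highest in replicate 1, and 3 were lowest in replicate 13. The hair keratin *Krt81* had 60.1 CPM in replicate 1, 9.74 in replicate 13 and at most 0.44 in the others, and *Krt36* had 44.9, 2.34 and at most 0.42 CPM. *Hoxc13*, a homeodomain factor that drives hair keratin genes, had 81.3, 24.6, 30.2, 22.8 and 14.4 CPM in replicates 1, 4, 7, 10 and 13 and was the most abundant member of the hair shaft list. Here replicate 13 was the lowest library. Of these 6 genes 4 were variable, and *Krt32*, a cuticle keratin, was not, with 33.2, 29.2, 25.8, 29.1 and 20.7 CPM. *Krt85* is a further member of this list, but no counted gene carried that name, so it has no value here.

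The keratin-associated proteins, which cross-link hair keratins through their cysteines, had the largest spread of any list that follows a tissue. Counts were found for 43 of the 57 listed genes in replicate 1, 30 in replicate 13, 14 in replicate 10 and 11 each in replicates 4 and 7. *Krtap6-2*, the gene with the largest BCV of all, had 240 counts (96.1 CPM) in replicate 1 and none in the other 4 libraries. Its BCV of 2.23 is close to 2.24, the most that 5 libraries allow. *Krtap8-1* had 133 CPM in replicate 1, 5.84 in replicate 13 and at most 1.33 elsewhere. Of the 57 genes 11 reached the mean of 20 counts and 10 of these were variable, but without replicate 1 a single member reached it, so that these genes entered the test through their level in replicate 1. *Krtap3-2* was the exception, with 82.5, 41.1, 39.6, 50.6 and 44.0 CPM and a BCV of 0.32. The genes of this family are near-identical within subfamilies, so that the division of counts among them is uncertain.

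Over the inner root sheath, hair shaft and keratin-associated protein lists together, 76 of 87 genes had a count in some WT library, and 69 of the 76 were highest in replicate 1. Of their 20 variable members 17 were second highest in replicate 13. The 3 lists took 0.188%, 0.0382% and 0.142% of the counts of replicate 1, against 0.0329% to 0.0532%, 0.00805% to 0.00903% and 0.00479% to 0.0118% in the other libraries. Without replicate 1, 8 members of these lists were tested, and only *Tchh* and *Tchhl1* remained variable.

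**Figure D2:**
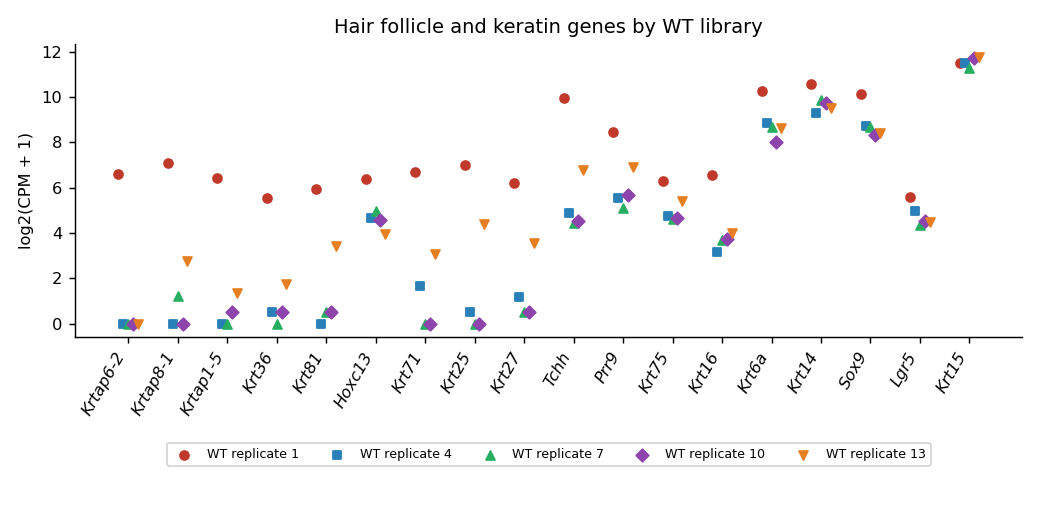
Level of 18 hair follicle and keratin genes (x axis) in each of the 5 WT libraries, as log2(CPM + 1) on the y axis. Replicate 1 (red circles) is the highest for all genes except *Krt15*, replicate 13 (orange triangles) is second for the inner root sheath and shaft genes from *Krt71* to *Prr9*, and the libraries nearly coincide for *Krt15*, with 2451 to 3439 CPM.

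Some genes of the outer root sheath and of the follicle's companion layer were also highest in replicate 1, though present in every library. *Sox9*, a transcription factor of the outer root sheath and bulge, had 1111 CPM in replicate 1 and 426, 405, 317 and 341 CPM in replicates 4, 7, 10 and 13. *Krt6a*, a keratin of the companion layer that injured epidermis also makes, had 1227, 459, 407, 261 and 397 CPM. Its partner *Krt16* had 94.1, 8.06, 12.01, 12.2 and 14.8 CPM. Without replicate 1 the BCV fell to 0.156 for *Sox9*, 0.231 for *Krt6a* and 0.0943 for *Krt16*, so the other 4 libraries were alike. *Krt17*, the most abundant member of the outer root sheath list, had 923, 421, 657, 382 and 575 CPM and was not variable. Of the 14 genes of that list 5 were highest and 5 lowest in replicate 1. Among the lowest were *Wif1*, an inhibitor of Wnt ligands, with 3.20 CPM against 9.35 to 22.7 in the others, and *Lgr6*, a stem cell receptor of the upper follicle, with 56.9 CPM against 104 to 123.

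Further genes were highest in replicate 1 as well. *Pinlyp* had 209 CPM there and at most 3.56 in the others, and the chromosome 16 genes *1110025L11Rik*, *Gm10228* and *Gm10229* had 57.7, 76.5 and 66.5 CPM there and at most 3.51 in the others. *Atp12a*, a proton pump subunit, had 99.7, 2.12, 8.89, 10.1 and 17.9 CPM, and *Gm10873* overlaps it on the other strand. *Prr9*, a proline-rich gene of the epidermal differentiation complex on chromosome 3, had 350, 45.4, 32.9, 49.3 and 120 CPM. *Hr*, the hairless corepressor, which acts in the hair cycle, had 262, 95.4, 24.9, 57.4 and 93.1 CPM. *Car6*, a secreted carbonic anhydrase, had 409 CPM in replicate 1 and 7.63 to 23.8 in the others. Without replicate 1 the BCV was 0.597 for *Prr9* and 0.607 for *Atp12a*, and fell below 0.5 for *Hr* (0.488) and *Car6* (0.347). *Sprr1a*, a cornified envelope precursor made in follicles and in stressed epidermis, had 490, 48.8, 166, 62.4 and 245 CPM and stayed variable without replicate 1, at 0.684.

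The shares of the dermal papilla, sebaceous gland and melanocyte lists differed between libraries by 1.28, 1.54 and 1.71 times. The dermal papilla instructs the follicle, and of its 8 tested genes only *Corin*, a protease of the papilla, was variable, with 28.0 CPM in replicate 1, 7.01 in replicate 13 and at most 2.12 in the others. It too did not reach the mean of 20 counts without replicate 1. *Trps1*, a GATA-type repressor, differed least, with 85.6 to 98.7 CPM and a BCV of 0.0259. The 15 sebaceous genes had a median BCV of 0.212, and none was variable, against 1.84% of all tested genes. Of the 15, 7 were highest in replicate 1, against 26.3% of all tested genes, and 10 were lowest in replicate 4. *Scd1*, a fatty acid desaturase and the most abundant of them, had 953, 605, 834, 895 and 566 CPM, and *Elovl4*, an elongase of very long chain fatty acids, had 923, 552, 733, 644 and 566 CPM. Melanocyte genes were lowest in replicate 1, at 0.0181% of counts against 0.0254% to 0.0309%. *Dct*, a melanin enzyme, had 50.5 CPM there and 100 to 131 CPM in the others, which do not overlap with it.

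The 75 listed genes of the epidermis, some of which follicles also make, took 3.83%, 2.98%, 3.93%, 3.76% and 4.36% of the counts of replicates 1, 4, 7, 10 and 13. Their mean was 3.77% ± 0.50 (SD, n = 5). Of 57 tested members of the basal, suprabasal and cornified lists none was variable, against 1.84% of all tested genes, and the 3 variable epidermal genes, *Krt6a*, *Krt16* and *Sprr1a*, all belong to the list of wound keratins and alarmins. The median BCV was 0.122 for the basal list, 0.195 for the suprabasal and 0.22 for the cornified list, against 0.141 over all tested genes.

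In the basal layer, *Krt15* was the most abundant keratin, with 3023 ± 412 CPM (SD, n = 5), and *Krt5* followed with 2049 ± 290 CPM. *Krt14*, the partner of keratin 5, had 1502, 627, 929, 841 and 735 CPM. It had the largest BCV of the basal list, 0.355, and 0.163 without replicate 1. *Cxcl14*, a chemokine that healthy keratinocytes secrete, had the smallest, 0.046, with 109 to 140 CPM. The hemidesmosome genes *Itga6* and *Col17a1*, which anchor basal cells, varied little, with 332 ± 30.8 and 329 ± 40.1 CPM.

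In the suprabasal layers, *Krt10* had 2757, 2083, 3668, 3770 and 5202 CPM, so that its level in replicate 13 was above that in the others and 2.5 times the lowest. Its BCV of 0.317 was the largest of the list. *Krt77* and the desmosome gene *Dsp* followed, with 2979 ± 493 and 2229 ± 476 CPM. *Krt1*, the usual partner of keratin 10, was far lower, at 197 ± 44.3 CPM, and a level read at a 3′ end can miss transcripts that end elsewhere. *Dsc1*, a desmosomal cadherin, was the steadiest member, with 78.8 to 102 CPM. Replicate 4 was the lowest library for 12 of the 16 tested suprabasal genes and for 18 of the 27 cornified genes.

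In the cornified layer, loricrin (*Lor*), the main protein of the envelope, was the most abundant and the steadiest gene, with 2578, 2640, 3074, 2584 and 2841 CPM and a BCV of 0.0781. *Spink5*, an inhibitor of the skin's kallikreins, had 2266 ± 269 CPM, and *Flg2*, a relative of filaggrin, had 1484 ± 263 CPM. The late cornified envelope gene *Lce1i* had the largest BCV, 0.417, with 9.21, 8.48, 24.9, 19.4 and 22.6 CPM. Replicate 13 was the highest library for 15 of the 27 genes, against 27.8% of all tested genes.

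The dermis took the largest mean share of the compartments, although in replicate 10 muscle took more, and its share differed between libraries by 2.4 times. Its 45 genes made up 5.33%, 6.36%, 6.82%, 3.84% and 9.28% of the counts of replicates 1, 4, 7, 10 and 13, a mean of 6.33% ± 2.01. *Col1a1*, a chain of type I collagen, had 12594, 17640, 20816, 9587 and 27853 CPM, and *Col1a2*, the other chain, had 14383, 17746, 18819, 10206 and 24989 CPM. *Sparc*, a collagen-binding matrix protein, had 5297, 7048, 7831, 4198 and 10006 CPM. All these genes were highest in replicate 13 and lowest in replicate 10. Of the 44 tested dermal genes 31 were highest in replicate 13, against 27.8% of all tested genes, and 30 were lowest in replicate 10. The share of all tested genes lowest in a given library was not computed, for this or any other list. None reached a BCV of 0.5 over the 5 libraries, and 1 did so when any 1 library was left out. The median BCV was 0.274 for the collagens and 0.242 for the other matrix and fibroblast genes, above the 0.141 of all tested genes.

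Within the dermis the spread was uneven. Collagen VII (*Col7a1*), which keratinocytes make for the anchoring fibrils, had 40.1 to 46.1 CPM and a BCV of 0, meaning no spread beyond counting error. *Col12a1* had 22.0, 4.24, 15.6, 13.9 and 11.7 CPM and the largest value of the collagen list, 0.437. *Cygb*, a globin of fibroblasts, had 76.5 to 97.0 CPM and a BCV of 0.0614, while *Islr* had 16.8, 16.1, 4.45, 6.75 and 18.7 CPM and 0.475. *Dcn*, a small proteoglycan that binds collagen fibrils, had 1459 CPM in replicate 10 and 3177 in replicate 13.

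Muscle took the second largest mean share. It fell to 3.09% when members whose exons overlap another gene were left out, an alternative under which the dermis took 5.14%. All muscle lists together made up 4.34%, 6.14%, 5.58%, 7.32% and 3.95% of the counts of replicates 1, 4, 7, 10 and 13, a mean of 5.46% ± 1.36. Fast fibre genes outweighed slow fibre genes. The 13 fast fibre genes took 2.88% ± 0.73 and the 8 slow fibre genes 0.032% ± 0.00777, most of which was *Mybpc1*. The slow fibre genes *Myl2* and *Tnnc1* had no count in any library. *Ttn*, the giant spring of the sarcomere, had 10041, 12925, 12816, 14574 and 7204 CPM, and skeletal actin (*Acta1*) had 4650, 7363, 7072, 7770 and 5290 CPM. *Ttn* alone held 21% of the muscle counts, and the mean share of muscle without it was 4.31%. *Myh4*, the myosin of the fastest fibres, had 4377, 5244, 3876, 8135 and 3573 CPM.

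Replicate 10, lowest for collagen, was the highest library for 31 of the 41 tested genes of the fast fibre, sarcomere scaffold and energy metabolism lists, and 37 of the 41 were lowest in replicate 1 or 13. Among all tested genes replicate 10 was the highest library for 17.4%. The collagen list held 1.71, 1.43, 1.77, 0.688 and 3.22 times the counts of the fast fibre list in replicates 1, 4, 7, 10 and 13. In bulk tissue a smaller part of the sample taken up by a cell type and less RNA per cell cannot be told apart.

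**Figure D3:**
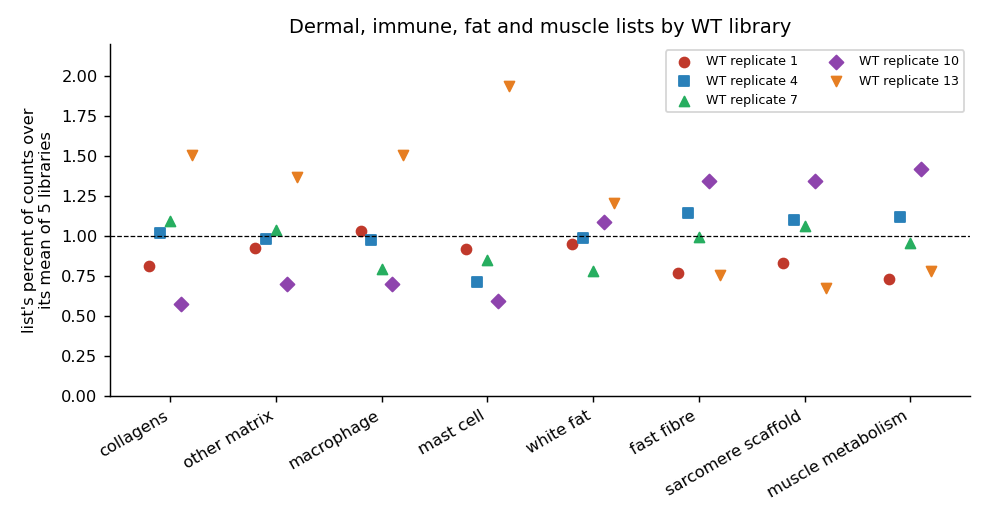
Share of library counts of 8 lists (x axis) divided by the list's mean over the 5 WT libraries (y axis, dashed line at 1). Replicate 13 (orange triangles) is highest for the collagen, matrix, macrophage, mast cell and white fat lists and replicate 10 (purple diamonds) for the muscle lists, with collagen shares from 2.67% to 6.98% and fast fibre shares from 2.17% to 3.88% of counts.

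The muscle genes did not all keep the order of the whole compartment. The myosins of intermediate fast fibres, *Myh1* and *Myh2*, were highest in replicate 7, where *Myh4* was near its lowest: *Myh2* had 141, 289, 472, 213 and 124 CPM and *Myh1* 578, 1223, 1304, 512 and 675 CPM. *Myh2* overlaps an antisense gene, and the counting is not stated to use strand. The titin cap gene *Tcap*, with 122, 166, 359, 428 and 137 CPM, and *Ampd1*, the muscle AMP deaminase, with 38.0, 80.1, 59.1, 161 and 60.8 CPM, were the other variable members. The BCV fell to 0.423 for *Myh2* without replicate 7 and to 0.301 for *Ampd1* without replicate 10, while that of *Tcap* without replicate 10 was 0.571. Cardiac actin (*Actc1*), which skeletal muscle uses during development and repair, had 20.8, 38.6, 8.89, 124 and 14.8 CPM and a BCV of 1.14, although no list held it. Myostatin (*Mstn*), a brake on muscle growth, had 42.9, 53.8, 24.5, 108 and 19.9 CPM. *Ankrd2* had 10.01, 26.3, 70.7, 50.6 and 17.9 CPM and *Xirp1* had 13.2, 16.5, 70.7, 39.6 and 17.5 CPM, both highest in replicate 7. Smooth muscle and pericyte genes were even apart from replicate 13, at 0.0820% to 0.0895% of counts in the others and 0.0589% there.

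White fat made up 0.596%, 0.621%, 0.489%, 0.681% and 0.756% of counts in replicates 1, 4, 7, 10 and 13. *Car3*, a carbonic anhydrase that muscle fibres make as well, accounted for 43.1% of the list. *Adipoq*, which encodes the fat cell hormone adiponectin, had 147, 120, 72.0, 127 and 270 CPM, and adipsin (*Cfd*) had 734, 417, 251, 417 and 1171 CPM. Both were highest in replicate 13 and lowest in replicate 7. Of the 22 tested genes 17 were lowest in replicate 7, and 13 were highest in replicate 13, against 27.8% of all tested genes. Variable were 5, against 1.84% of all tested genes: *Plin1*, *Cfd*, *Lep*, *Acvr1c* and *Pck1*. Leptin (*Lep*) went its own way, with 7.21, 24.6, 3.11, 17.3 and 9.35 CPM. *Plin4*, a lipid droplet protein, was the steadiest, with 87.6 to 125 CPM. Without replicate 1, 9 of the 22 were variable, and without replicate 7 the fat lists held 1 variable gene. *Ucp1*, the uncoupling protein that defines brown fat, had 2, 0, 1, 0 and 0 counts. The brown fat list as a whole took 0.0763% of counts, of which 82% came from *Elovl6*, a fatty acid elongase that other tissues also use.

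**Figure D4:**
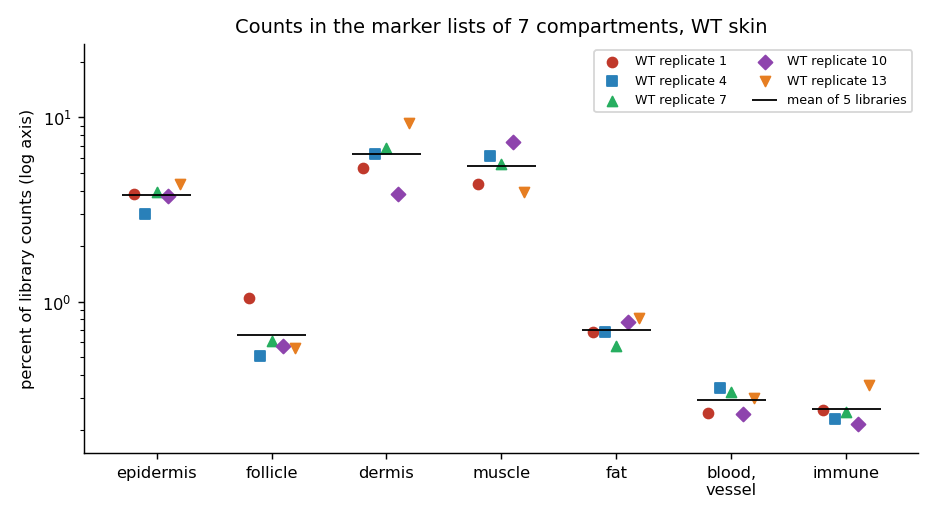
Percent of library counts (y axis, log scale) taken by the marker lists of 7 compartments (x axis) in each of the 5 WT libraries, with the mean as a line. Replicate 1 (red) stands above the others for the follicle, at 1.05% against 0.504% to 0.612%, and the dermis and muscle points spread most among the larger compartments.

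Blood and vessel genes took 0.291% ± 0.0434 of counts, and none of the 27 tested was variable, where 1.84% of all tested genes were. Their median BCV was 0.199. The globin genes carried most of it. *Hbb-bs*, an adult beta globin, had 643, 889, 979, 660 and 757 CPM, and the near-identical alpha globins *Hba-a1* and *Hba-a2* together with it were lowest in replicate 1. *Hbb-bt* had the largest BCV of the list, 0.343. The 13 tested endothelial genes had a median BCV of 0.168, with *Kdr*, the main VEGF receptor, at 58.3 ± 8.07 CPM and *Pecam1*, a junction protein of all endothelium, at 79.4 ± 15.8 CPM. *Tek* and *Vwf* had no spread beyond counting error at their low counts. *Ahsp* is a further member of the erythroid list, but no counted gene carried that name, so it has no value here.

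Leukocyte genes were a small part of the counts, 0.258%, 0.23%, 0.253%, 0.215% and 0.354% in replicates 1, 4, 7, 10 and 13. Replicate 13 was the highest library for 33 of the 40 tested members, against 27.8% of all tested genes. Macrophage genes took 0.0862% ± 0.027. The complement genes *C1qa*, *C1qb* and *C1qc*, made by resident macrophages, had 68.5 ± 24.5, 72.8 ± 30.3 and 71.5 ± 24.6 CPM. *Lyz2*, lysozyme of macrophages and neutrophils, was the variable member, with 61.3, 63.6, 45.8, 42.2 and 136 CPM, and its BCV fell from 0.517 to 0.188 without replicate 13. Without replicate 1, 3 macrophage genes were variable, *Lyz2*, *Folr2* and *Cd68*. *Mrc1*, the mannose receptor of tissue macrophages, had the smallest BCV of the list, 0.187.

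Mast cell genes had the largest median BCV of the leukocyte lists, 0.456 over 6 tested genes. *Cma1*, a mast cell chymase, had 21.6, 11.9, 18.7, 10.5 and 66.6 CPM, and *Cpa3*, the carboxypeptidase of their granules, had 45.2, 26.3, 43.1, 30.4 and 95.4 CPM. *Tpsb2*, a tryptase, had 20.8, 17.4, 17.8, 14.8 and 49.1 CPM. Each was higher in replicate 13 than anywhere else, and these 3 of the 6 tested genes were variable with or without replicate 1. Without replicate 13 none of them was, with BCVs of 0.279, 0.216 and 0 for *Cma1*, *Cpa3* and *Tpsb2*. *Hdc*, which makes histamine, and the receptor *Kit* were not, with BCVs of 0.105 and 0.187.

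Antigen presentation genes were present in all libraries, with *H2-Ab1* at 209 ± 55.2 and *Cd74*, the invariant chain, at 192 ± 23.6 CPM. *Cd207* (langerin), which defines Langerhans cells, had only 2.40 to 6.23 CPM. In the T cell and innate lymphoid list *Rora* and *Thy1*, which other skin cells also make, held most counts, and *Trbc2*, a T cell receptor constant gene, had 17.6, 17.8, 24.01, 25.3 and 25.7 CPM. The B and plasma cell list took 0.00152% ± 0.000562 of counts, nearly all from *Ighm*. Neutrophil genes were near 0: 6 of the 10, among them *Ly6g*, *Camp*, *Ngp* and *Cxcr2*, had no count in any library, and the alarmin *S100a8* had 4, 3, 4, 4 and 10 counts. Of the 14 genes of the type I interferon response 4 were tested and none was variable, and *Ifitm3*, with 255.6 to 326 CPM, took 71.1% of the counts of that list.

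Genes of nerve differed little, with a median BCV of 0.121 over the 9 tested. The Schwann cell factor *Sox10* had 24.9 to 31.4 CPM with no spread beyond counting error. Markers of neighbouring tissues were at or near 0. The 5 milk protein genes had no count, and the cartilage list had at most 0.000561% of counts.

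CT010467.1, a ribosomal RNA gene, was the most abundant, with 60192, 86510, 59294, 51494 and 38995 CPM. Of the 20 most abundant genes 7 were mitochondrially encoded, led by *mt-Nd4* with 24399 ± 4986 CPM, and the others included *Col1a1*, *Col1a2*, *Col3a1*, *Malat1*, *Ttn*, *Sparc*, *Acta1*, *Myh4*, *Krt10*, *Apoe* and *Krt15*. Of these 20, *Apoe*, the apolipoprotein of macrophages and sebocytes, was the 1 variable gene, with 6028, 1804, 2524, 2329 and 3339 CPM, a BCV of 0.506, and 0.225 without replicate 1. *Malat1*, a nuclear RNA, was the steadiest of them, with 15345 to 17106 CPM and a BCV of 0.0348. *Gm37376*, also among the 20, overlaps it, so that a read can be counted for both. Protein-coding genes took 83.0% to 89.1% of counts and mitochondrial genes 7.42% to 11.2%.

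Some genes that every cell uses were listed near 0, which limits what a low value means. *Gapdh* had 4.004, 4.24, 0.44, 0.42 and 0 CPM and *Tpt1* at most 1.33 CPM. *mt-Co2*, *mt-Co3*, *mt-Atp6* and *Rps6* had no count in any library. Of 92 protein-coding ribosomal protein genes 22 had a mean below 1 CPM. Many of these genes have near-identical copies elsewhere in the genome, and the authors kept matches of mapping quality 30 or more. The part of this filter in the values was not tested. *Actb*, by comparison, had 2129 ± 144 CPM and a BCV of 0.0609.

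Circadian clock genes divided the WT libraries in another way. In the clock, CLOCK and its partner BMAL1, the product of *Arntl*, switch on the *Per*, *Cry* and *Nr1d* genes and the factors *Dbp*, *Tef* and *Hlf* through E-boxes (CACGTG), and their products act back on *Arntl*, so that the 2 arms peak at different hours. *Per2* had 14.02, 13.99, 52.0, 54.4 and 19.1 CPM in replicates 1, 4, 7, 10 and 13, and *Per3* had 35.2, 36.0, 96.5, 108 and 45.2 CPM. *Dbp* had 5.61, 21.6, 48.0, 54.8 and 23.0 CPM. These 3 genes were variable, and each was high in replicates 7 and 10. *Tef* had 126, 195, 346, 350 and 166 CPM. *Arntl* was instead lowest in replicates 7 and 10, with 28.4, 16.1, 14.2, 11.4 and 36.2 CPM.

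Of the 15 clock genes, 10 had their highest pair of values in replicates 7 and 10, and *Arntl*, *Clock* and *Npas2* had their lowest pair there. Among all tested genes 8.78% and 11.5% did so. *Clock*, whose product changes little over the day, differed least, with 57.8 to 76.1 CPM and a BCV of 0.0623. The hour of sampling is not given in the labels or methods, and its part in these values was not tested. Without replicate 1, *Per2*, *Per3* and *Arntl* were at 0.5 or more (0.604, 0.502 and 0.529), while *Dbp* fell to 0.453.

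The stretches of clock gene promoters that hold these motifs are shown for *Ciart* and *Tef* (CACGTG in capitals) and for *Per3* (the D-box TTATGTAA in capitals, the site that DBP, TEF and HLF can bind). They lie at chr3:95882252-95882359 (- strand), chr15:81802531-81802566 (+ strand) and chr4:151044801-151044885 (- strand) of GRCm38.p6.
Ciart: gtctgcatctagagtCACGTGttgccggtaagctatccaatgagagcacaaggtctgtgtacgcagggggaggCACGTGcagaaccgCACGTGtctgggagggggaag
Tef: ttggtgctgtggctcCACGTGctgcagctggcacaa
Per3: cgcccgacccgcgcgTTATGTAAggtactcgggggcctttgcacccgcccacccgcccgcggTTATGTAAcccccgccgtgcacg

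CACGTG, which reads the same on both strands, was found in 7.15% of all promoter windows, and in 5 of the 14 clock genes with a window: *Bhlhe41*, *Ciart*, *Cry1*, *Per1* and *Tef*. *Ciart* held 3 copies. TTATGTAA was searched on both strands and found in 0.938% of windows, and of the clock genes only *Per3* held it, with 2 copies. *Ciart*, a repressor of the clock, had 9.61, 2.97, 4.45, 14.3 and 5.06 CPM and did not reach the mean count needed to be tested.

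Hox genes, which keep the position of a cell along the body axis, gave 1 more contrast. This list was added after their values had been seen. The 39 Hox genes fall into numbered groups, and higher numbers are used nearer the tail. Those of groups 1 to 8 had a sum of 618, 602, 534, 583 and 630 CPM in replicates 1, 4, 7, 10 and 13. Of their 15 tested members 3 were lowest in replicate 10, among them the variable gene *Hoxb6*, with 14.02, 11.02, 4.002, 2.95 and 13.2 CPM. Those of groups 9 and 10 had a sum of 94.1, 147, 128, 51.0 and 158 CPM, and all 5 that were tested were lowest in replicate 10. Those of groups 11 to 13, mostly *Hoxc13*, had a sum of 81.7, 26.3, 32.0, 23.2 and 14.8 CPM, lowest in replicate 13. *Hoxc10* had 15, 47, 23, 0 and 56 counts (6.01, 19.9, 10.2, 0 and 21.8 CPM) and a BCV of 0.773. The absence of counts in replicate 10 has an exact 95% Poisson upper bound of 1.56 CPM, which is below the lower bound of the interval of every other library. *Hoxa9* had 16.4, 36.5, 28.5, 10.1 and 30.8 CPM and *Hoxc9* had 36.0, 46.2, 51.6, 19.4 and 63.1 CPM. By contrast *Hoxc8*, the gene beside *Hoxc9*, had 79.3 to 99.5 CPM and a BCV of 0.0826. Annotated exons of *Hoxc10* and *Hoxc5* overlap on the same strand, so that some reads may be shared.

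**Figure D5:**
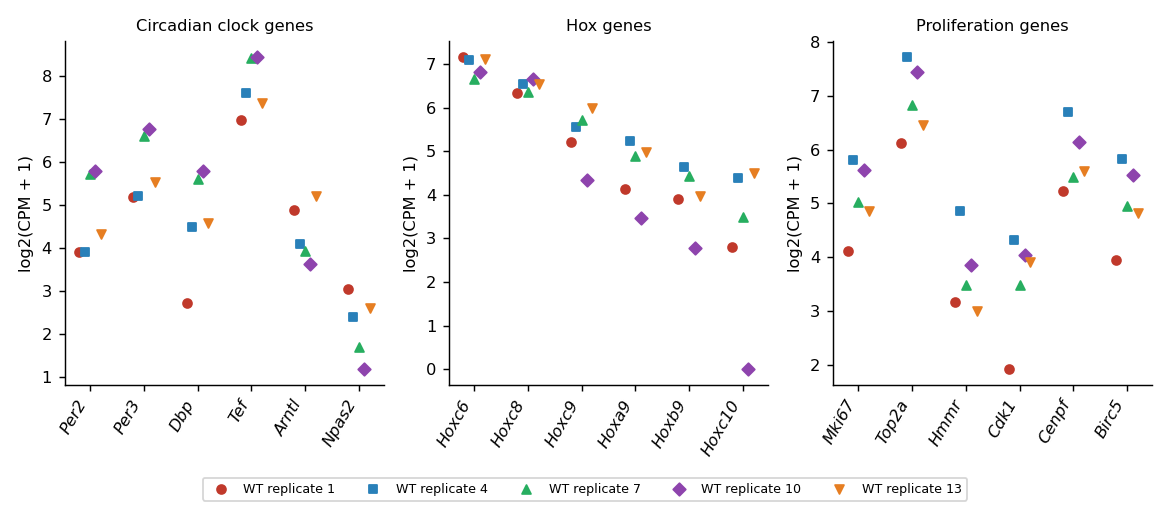
Level of 6 clock genes, 6 Hox genes and 6 proliferation genes in each of the 5 WT libraries, as log2(CPM + 1). *Per2*, *Per3*, *Dbp* and *Tef* are highest in replicates 7 (green) and 10 (purple) while *Arntl* and *Npas2* are lowest there, *Hoxc10* falls to 0 counts in replicate 10, and the proliferation genes are highest in replicate 4 (blue) and, apart from *Hmmr*, lowest in replicate 1 (red).

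Most tested genes of dividing cells were highest in replicate 4. *Top2a*, a topoisomerase of the S and G2 phases, had 68.5, 209, 113, 172 and 86.9 CPM, and *Mki67* had 16.4, 54.7, 31.6, 48.1 and 28.0 CPM. Of the 18 tested members of the proliferation list 15 were highest in replicate 4 and 14 lowest in replicate 1, the library with the highest hair gene values. Among all tested genes replicate 4 was the highest library for 13%. *Hmmr*, a spindle protein, with 8.01, 28.0, 10.2, 13.5 and 7.01 CPM, and *Mcm5*, a helicase subunit of DNA replication, with 2.40, 9.33, 14.7, 15.6 and 6.23 CPM, were variable, the second being highest in replicate 10. Each call was lost without 1 library: the BCV was 0.238 for *Hmmr* without replicate 4 and 0.343 for *Mcm5* without replicate 1. *Ube2c* took 82% of the counts of the list, at 1524 to 3662 CPM. Its exons overlap those of the muscle gene *Tnnc2* on the other strand, whose values were 1585 to 3739 CPM, so its counts cannot be told apart from muscle. Without it the list took 0.0296%, 0.0828%, 0.0485%, 0.0641% and 0.0435% of counts.

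Of the 15 immediate early genes 3 were variable, 9 were highest in replicate 1 and 9 lowest in replicate 4, where 1.84% of all tested genes were variable and 26.3% were highest in replicate 1. Of the 10 heat shock genes 1 was variable and 5 were highest in replicate 7. *Atf3*, an early gene of the stress response, had 11.6, 5.94, 59.1, 10.96 and 1.95 CPM and a BCV of 1.3. Without replicate 7 it did not reach the mean of 20 counts. In the same library, replicate 7, the heat shock genes *Dnajb1* and *Hspa1a* had their highest values, 80.9 and 90.7 CPM, against 23.7 to 51.0 and 26.7 to 54.5 in the others. *Fos* and *Fosb* were also highest there, with 22.7 and 18.7 CPM, but *Egr1* had 125 CPM in replicate 1 and 63.1 in replicate 7. *Egr3* had no spread beyond counting error.

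The 4 libraries other than replicate 1 differed among themselves in other genes. Of the 121 genes that were variable without it, 63 were highest in replicate 13, 21 in replicate 4, 19 in replicate 7 and 18 in replicate 10. With replicate 1 included, these libraries were the highest for 27.8%, 13%, 15.5% and 17.4% of all tested genes, in the same order. The shares of all tested genes among these 4 libraries alone were not computed. *Slc15a2*, a peptide transporter, had 27.2, 5.51, 2.22, 11.8 and 51.8 CPM in replicates 1, 4, 7, 10 and 13. *Sox11*, a transcription factor of developing tissue, had 5.21, 22.9, 6.22, 8.86 and 2.34 CPM. *Sbk2*, a kinase gene, had its highest value, 121 CPM, in replicate 10, as *Actc1* and *Mstn* did.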

How the data were processed

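RNA from whole skin was sequenced with QuantSeq 3′ FWD libraries. The study's methods name an RNA integrity number below 4 as a reason for exclusion, yet describe the samples kept as lying below 4. RNA quality of single libraries was not examined here. The authors trimmed reads with cutadapt 2.10 to at least 35 bases, mapped them with subread to GRCm38 plus spike-in sequences, kept primary matches of mapping quality 30 or more, and deposited counts per gene from featureCounts 2.0.1 and CPM, each count divided by its library total. Matches overlapping several genes by at least 20 bases were counted for each, and use of strand is not stated. The 92 spike-in rows sum to 0 and were dropped. Of 55487 genes 55141 had a row in GENCODE M21 (GRCm38), and 11332 share exon positions with another gene.

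Here counts of the 5 WT libraries were scaled with TMM (edgeR 4.0.16, R 4.3.3). BCV was computed by moments for genes with a mean of at least 20 counts, and this code was tested on simulated data. The 44 lists were written for this tissue, the members and lists being chosen with earlier results of these data known. With 1 group there is no test between conditions. Named genes were the 20 of highest mean CPM, up to 3 per list, the 25 with the largest BCV, the 10 such genes of at least 100 CPM, and the extremes of each list. The Hox list and the other genes described outside these rules (among them *Actc1*, *Mstn*, *Ankrd2*, *Xirp1*, *Gapdh*, *Tpt1*, *Actb*, and further clock, stress and mast cell genes) were chosen after their values were seen. The ribosomal list was limited to genes annotated as protein-coding, without the Rps6k kinases, after seeing the data.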

Additional observations from a re-analysis of the deposited data

Results flagged for a closer look

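In 71 sets of 5 values, the gap between the most distant library and its neighbour was compared with the whole range. The sets were the library total, the share of each compartment, and the CPM of the 20 most abundant genes and of *Otulin*. They also held the share of each list whose summed counts had a mean of at least 20 per library. The gap exceeded Dixon's 95% limit of 0.71 of the range in 9 sets, and chance alone marks about 1 set in 20. Single genes picked for their spread were not examined, but the lists were chosen with earlier results of these data known, so the rate of 1 in 20 does not strictly apply to them.

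Replicate 1 was the distant library in 6 of the 9, always as the highest. The gap was 0.968 of the range for hair shaft keratins, 0.949 for keratin-associated proteins, 0.869 for the inner root sheath and medulla, 0.801 for the follicle compartment, 0.786 for wound keratins and alarmins, and 0.975 for the X inactivation and Y-linked list. These sets are not independent, since the follicle compartment contains the hair lists.

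Replicate 13 was the distant library for the mast cell list, where it was highest with a gap of 0.759, and for smooth muscle and pericyte genes, where it was lowest with a gap of 0.756. Replicate 10 was lowest for *Otulin*, with a gap of 0.722 and 29 counts against 59 to 64 in the others.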

How the results depend on the processing

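The number of variable genes depended on the threshold and on low counts. It was 200, and 410 with a mean of at least 10 counts, 100 with at least 50, 4399 with no filter, 1288 at a BCV of 0.3, 37 at a BCV of 1, and 54 by edgeR tagwise dispersions, which shrink each gene toward the others (all 54 were among the 200). Scaling by DESeq2 size factors (DESeq2 1.42.0), upper quartiles or library totals kept it within 1.5 times. Leaving out 1 library at a time gave 121 to 286, lowest without replicate 1. Leaving out genes with overlapping exons, chosen after seeing the data, gave 153. The number of variable members ranged, over the same omissions, from 2 to 26 for the follicle (2 without replicate 1), 1 to 4 for the epidermis (1 without replicate 1), 2 to 4 for muscle, 1 to 9 for fat (1 without replicate 7 and 9 without replicate 1), 1 to 6 for immune genes (1 without replicate 13), and was 1 in each for the dermis, where all 5 libraries gave 0. The cause of these changes was not tested. Compartment shares stayed within their spread for each scaling and denominator. Without its most abundant gene, fat fell to 0.431% (from 0.705%) and blood to 0.212% (from 0.291%). Chosen after seeing the data, leaving out members with overlapping exons gave 2.69% for the epidermis, 3.09% for muscle, 0.603% for fat and 0.187% for immune genes. All 91 named genes whose BCV was recomputed stayed on the same side of 0.5 with DESeq2 size factors and library totals, and without replicate 1, 8 of 67 still tested fell below it. No paired analysis was possible because the groups share no replicate numbers and a single group was analysed.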
